A study of Rattus norvegicus with 9 samples.

Results

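Glucuronosyltransferases and sulfotransferases are the enzymes that attach a sugar acid or a sulfate group to hormones, bilirubin, bile acids, drugs and other small molecules. They were followed here in the kidneys of 3 rat strains on microarrays. The members were all probes whose RefSeq transcript carries a rat symbol beginning with Ugt1a, Ugt2a, Ugt2b, Ugt3a, Ugt8 or Sult and a digit. This gave 29 probes for 28 genes, of 13903 genes named on the array: 8 Ugt1a genes, 8 Ugt2 genes, Ugt8 and 11 Sult genes. A further 9 coding genes of these families (Sult1c2al1, Sult4a1, Sult5a1, Sult6b1, Sult6b2, Ugt2b10, Ugt2b34l1, Ugt2b7l1 and Ugt3a1) are not analysed here.

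Each strain was represented by 3 male kidneys taken at 53 days of age, 1 array per kidney. Dahl S is the salt-sensitive Dahl rat, Dahl R its salt-resistant counterpart, and SHR the spontaneously hypertensive rat. All 9 animals shared a birth day, were weaned at 30 days and ate a 0.3% salt diet from then on, so no strain received a high-salt challenge. The comparisons ask how the strains differ on that diet. The labels do not say whether rats of a strain shared a litter. The p-values therefore cover only the variation among these arrays, which is between animals and may in part be technical. Whole kidney was used, in which fewer cells of a type and less RNA per cell cannot be told apart.

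Glucuronosyltransferases sit in the endoplasmic reticulum and take glucuronic acid from UDP-glucuronic acid. Cytosolic sulfotransferases take sulfate from the activated donor PAPS. Both make their substrates more soluble in water, and the products leave the cell through efflux pumps into urine or bile. In the kidney these enzymes are known mainly from the proximal tubule. The Ugt1a genes are unusual: each has its own first exon, and all share the later exons of a single locus, so a probe in the shared part reads every one of them. The probe sequences are not in the files, and closely related Ugt2b or Sult1c transcripts may also share signal.

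Levels are log2 signals relative to the 75th percentile of the array, which is set at 0, so a difference of 1 is a doubling. Levels are compared between strains for the same probe and not between probes. A probe was tested where it was well above background on at least 3 arrays. The test was limma's moderated fit over all 9 arrays, with Benjamini-Hochberg adjustment over the 16592 tested probes and an adjusted p under 0.05 called a difference. Of the 29 member probes, 21 for 20 genes were tested, and 18 were above background on all 9 arrays. In the third SHR array, scanned apart from the others, only 43.1% of all probes were above background, against 60.1% to 70.3% on the rest. Its median local background was 88, against 43 to 45, and 7.93% of its spots were marked as outliers by the scanner software, against 1.49% to 2.62%. Among them were 10 member spots, those of all 9 Ugt1a probes and of Sult1c2a, which therefore rest on 2 SHR arrays.

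The promoters of 26 of the 28 member genes were found in RefSeq (GRCr8; all but Ugt1a5 and Ugt2a1), each 300 bases from 250 before to 50 after the gene's start. The windows of Ugt2b7 (chr14:21251285-21251584, plus strand), Ugt2b35 (chr14:21208191-21208490, plus strand) and Ugt2b37 (chr14:21171886-21172185, plus strand) are shown because these neighbouring genes were all lower in SHR than in Dahl R. They read, 5′ to 3′, with the longest run common to all of them in capitals:
Ugt2b7: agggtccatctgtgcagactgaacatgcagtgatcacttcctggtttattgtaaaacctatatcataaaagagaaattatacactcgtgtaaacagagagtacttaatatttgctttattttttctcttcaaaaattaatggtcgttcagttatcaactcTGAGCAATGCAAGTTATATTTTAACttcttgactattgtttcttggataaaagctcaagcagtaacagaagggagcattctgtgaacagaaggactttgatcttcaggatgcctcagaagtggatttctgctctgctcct
Ugt2b35: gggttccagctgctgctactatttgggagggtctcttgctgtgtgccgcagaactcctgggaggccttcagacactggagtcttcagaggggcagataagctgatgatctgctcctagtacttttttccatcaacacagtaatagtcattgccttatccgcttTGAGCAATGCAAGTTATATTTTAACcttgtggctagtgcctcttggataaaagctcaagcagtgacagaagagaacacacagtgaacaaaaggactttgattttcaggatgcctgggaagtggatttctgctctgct
Ugt2b37: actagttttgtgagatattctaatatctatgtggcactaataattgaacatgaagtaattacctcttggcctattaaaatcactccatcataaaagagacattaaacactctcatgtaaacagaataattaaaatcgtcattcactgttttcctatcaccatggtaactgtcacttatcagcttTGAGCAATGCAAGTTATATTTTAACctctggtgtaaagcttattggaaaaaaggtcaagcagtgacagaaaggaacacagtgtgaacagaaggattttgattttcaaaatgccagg

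The common run was 25 bases long and began 90 bases before the start of Ugt2b7, 87 before that of Ugt2b35 and 66 before that of Ugt2b37. Over the whole window, with gaps not counted, Ugt2b7 matched Ugt2b35 at 75.6% and Ugt2b37 at 75.9% of aligned bases. Ugt2b35 matched Ugt2b37 at 72.1%. The same alignment of these windows with those of Sult1c2, Sult1c2a and Sult1c3 gave 57.9% to 64.3%. The run was found, on either strand, in 7 of 33469 promoter windows. Ugt2b15 and Ugt2b held it too, 78 and 74 bases before their starts, and so did Ugt2b7l1. The run is therefore found both in genes that were detected in kidney and in Ugt2b, which was not.

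The windows of Sult1c2 (chr9:7436731-7437030, plus strand), Sult1c2a (chr9:7103153-7103452, minus strand) and Sult1c3 (chr9:7594207-7594506, minus strand) are shown because Sult1c2 and Sult1c3 were lower in SHR than in both Dahl strains while Sult1c2a was not called in any comparison. Capitals mark AGAACA, the hexamer bound by the glucocorticoid receptor, or its reverse complement:
Sult1c2: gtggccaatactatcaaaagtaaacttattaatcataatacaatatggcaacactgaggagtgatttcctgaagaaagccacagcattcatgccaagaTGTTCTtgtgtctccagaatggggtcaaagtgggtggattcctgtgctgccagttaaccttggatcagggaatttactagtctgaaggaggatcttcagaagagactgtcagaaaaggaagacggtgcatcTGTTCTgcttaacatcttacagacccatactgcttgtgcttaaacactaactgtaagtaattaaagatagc
Sult1c2a: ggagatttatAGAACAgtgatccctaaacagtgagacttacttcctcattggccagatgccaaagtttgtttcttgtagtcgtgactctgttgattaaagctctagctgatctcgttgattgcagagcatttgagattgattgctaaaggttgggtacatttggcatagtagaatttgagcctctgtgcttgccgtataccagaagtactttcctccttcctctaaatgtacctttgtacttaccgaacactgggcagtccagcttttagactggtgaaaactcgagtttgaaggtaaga
Sult1c3: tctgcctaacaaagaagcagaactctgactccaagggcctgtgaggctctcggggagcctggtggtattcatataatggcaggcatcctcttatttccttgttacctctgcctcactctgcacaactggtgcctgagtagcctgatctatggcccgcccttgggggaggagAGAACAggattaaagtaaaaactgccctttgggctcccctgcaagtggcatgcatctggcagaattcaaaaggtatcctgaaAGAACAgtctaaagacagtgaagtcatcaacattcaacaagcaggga

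AGAACA was searched on both strands and occurred in 13 of the 26 member windows and in 20.7% of all 33469. Other motifs were searched in the same way, and no matches of different motifs overlapped in the member windows. AGGTCA, the hexamer of many nuclear receptors, was in 4 member windows and 16.2% of all. GCGTG, the core of the dioxin response element, was in 6 and 29.7%. A match describes the letters and no binding was measured.

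The sulfotransferases Sult1c2 and Sult1c3 were lower in SHR kidneys than in those of both Dahl strains. They lie on chromosome 9, with Sult1c2al1 as the coding gene between them. Sult1c enzymes sulfate small phenols and some hydroxylated aromatic amines. Sult1c2 read 4.31, 4.40 and 4.11 on the Dahl S arrays, 4.27, 4.05 and 4.24 on the Dahl R arrays, and 2.53, 2.37 and 2.67 on the SHR arrays. All 3 SHR arrays lay below every Dahl array, and the Dahl strains overlapped. The level was 3.36-fold lower in SHR than in Dahl S (log2 difference 1.75 ± 0.12 SE, adjusted p = 0.000136) and 3.16-fold lower than in Dahl R (1.66 ± 0.12, adjusted p = 0.000194). Between the 2 Dahl R and 2 SHR arrays scanned together, the difference was -1.69.

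Sult1c3 read -2.64, -2.54 and -2.65 in Dahl S and -1.84, -1.53 and -1.82 in Dahl R. In SHR it read -4.42, -4.53 and -3.52, the last not well above background. The strains did not overlap, with Dahl R highest and SHR lowest. It was 2.92-fold lower in SHR than in Dahl S (1.54 ± 0.25, adjusted p = 0.00672) and 5.36-fold lower than in Dahl R (2.42 ± 0.25, adjusted p = 0.000951). The SHR mean includes the array not well above background, so these folds are not exact. Without SHR replicate 3, Dahl S minus SHR was 1.86 and SHR minus Dahl R was -2.74. The Dahl S level was below that of Dahl R by 0.88 (adjusted p = 0.215), a difference that passed the test without SHR replicate 3 (adjusted p = 0.00543). With the normexp background correction neither SHR difference passed, at 1.25 against Dahl S (adjusted p = 0.294) and -1.53 against Dahl R (adjusted p = 0.26).

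Sult1c2a lies on the same chromosome, separated from Sult1c2 by 4 coding genes. It read 7.03, 6.92 and 6.67 in Dahl S, 7.14, 6.84 and 7.07 in Dahl R, and 6.97 and 7.29 on the 2 usable SHR arrays. The strains overlapped, with differences of -0.26 ± 0.17 for Dahl S minus SHR and 0.11 ± 0.17 for SHR minus Dahl R (adjusted p = 0.342 and 0.691).

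The other detected sulfotransferases were not called. Sult1a1, the main phenol sulfotransferase, had a mean of 1.89 in Dahl S, 2.50 in Dahl R and 1.72 in SHR, where the third array read 0.70 and the others 2.16 and 2.31. Sult1b1, which sulfates thyroid hormones, had means of 4.44, 4.77 and 4.44. Sult2b1, a cholesterol and pregnenolone sulfotransferase, had means of -0.96, -1.18 and -0.80. Without SHR replicate 3, Sult1a1 passed between the Dahl strains (-0.61, adjusted p = 0.0271) and Sult2b1 between SHR and Dahl R (0.53, adjusted p = 0.015). Sult1d1, Sult1e1, the estrogen sulfotransferase, and the hydroxysteroid sulfotransferases Sult2a1, Sult2a2 and Sult2a6 were not well above background on any array.

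**Figure D1:**
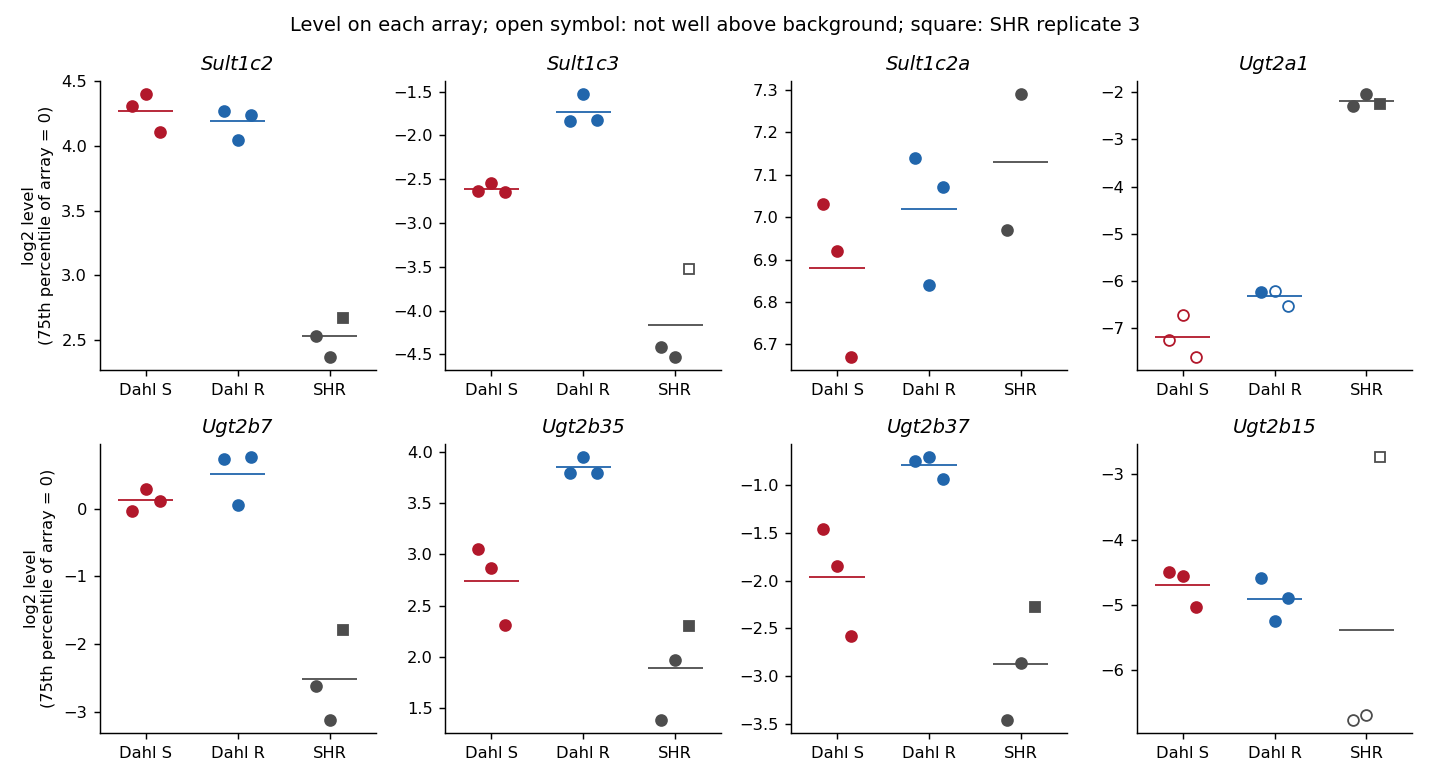
Log2 level on each array (75th percentile of the array at 0; the vertical scale differs between panels) for 8 members, with a line at each strain's mean, open symbols where the probe was not well above background and a square for SHR replicate 3. Sult1c2, Sult1c3 and Ugt2b7 are lowest in SHR without overlap, Ugt2a1 is highest in SHR, and the third SHR array is the highest SHR value for Sult1c2, Sult1c3, Ugt2b7, Ugt2b35, Ugt2b37 and Ugt2b15.

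Among the Ugt2 genes, Ugt2a1 was higher and several Ugt2b genes were lower in SHR. Ugt2a1 is best known as the glucuronosyltransferase of the olfactory epithelium. Its probe read -2.29, -2.04 and -2.24 in SHR. In Dahl R it read -6.24, -6.21 and -6.53, with only the first above background, and in Dahl S -7.26, -6.72 and -7.62, none of them above background. All 3 SHR arrays stood apart from all 6 Dahl arrays. The SHR level was at least 16.9-fold above that of Dahl S (log2 difference of the measured values -5.01 ± 0.22, adjusted p = 1.37e-05). The bound on each Dahl S array was its lowest signal well above background, or the probe's own signal where that was higher. Against Dahl R the log2 difference of the measured signals was 4.14 ± 0.22 (adjusted p = 3.52e-05), with no fold because 1 of 3 Dahl R arrays was above background and the others give only a bound. The probe met the detection filter through its SHR arrays, so a difference was built into its being tested. It was 4.21 among arrays scanned together. With the normexp correction the differences were -1.50 and 2.76 and did not pass (adjusted p = 0.301 and 0.0849).

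Ugt2b7, one of the enzymes that conjugate steroids, bile acids and drugs, moved the other way. It read -0.03, 0.29 and 0.11 in Dahl S, 0.73, 0.05 and 0.76 in Dahl R, and -2.62, -3.11 and -1.79 in SHR. The Dahl strains overlapped and every SHR array lay below them. It was 6.20-fold lower in SHR than in Dahl S (2.63 ± 0.34, adjusted p = 0.0022) and 8.10-fold lower than in Dahl R (3.02 ± 0.34, adjusted p = 0.00137). The second difference passed under all 21 other settings tried, between -3.37 and -2.72, and was -3.27 among arrays scanned together.

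Ugt2b35 and Ugt2b37 ran from Dahl R at the top through Dahl S to SHR. Ugt2b35 read 3.05, 2.87 and 2.31 in Dahl S, 3.79, 3.95 and 3.79 in Dahl R, and 1.39, 1.97 and 2.30 in SHR. No strains overlapped, but the lowest Dahl S array and the highest SHR array nearly met. Ugt2b35 was 3.89-fold lower in SHR than in Dahl R (1.96 ± 0.26, adjusted p = 0.00303). Dahl S lay above SHR by 0.86 (adjusted p = 0.0658) and below Dahl R by 1.1 (adjusted p = 0.119), and neither passed. Both passed without SHR replicate 3, at 1.06 (adjusted p = 0.0209) and -1.10 (adjusted p = 0.0416).

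Ugt2b37 read -1.46, -1.85 and -2.58 in Dahl S, -0.74, -0.70 and -0.93 in Dahl R, and -3.46, -2.86 and -2.28 in SHR. Dahl R stood above both other strains, which overlapped. The SHR level was 4.22-fold lower than that of Dahl R (2.08 ± 0.35, adjusted p = 0.00868). The difference of 0.90 between Dahl S and SHR did not pass (adjusted p = 0.127), and passed at 1.20 without SHR replicate 3 (adjusted p = 0.0367). Among arrays scanned together, SHR minus Dahl R was -2.19 for Ugt2b35 and -2.35 for Ugt2b37.

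Ugt2b15 could be compared less firmly. It read -4.50, -4.56 and -5.03 in Dahl S and -4.59, -5.25 and -4.90 in Dahl R. In SHR it read -6.76, -6.68 and -2.73, none well above background, and the last of these came from the array with the high background. No difference passed with that array (adjusted p = 0.653 and 0.782). Without it both comparisons passed (adjusted p = 0.00116 against Dahl S and 0.00219 against Dahl R). As the SHR signals were not well above background, the differences of 2.02 and 1.81 by which SHR was lower are lower bounds. The probe met the detection filter through its Dahl arrays, so a difference was built into its being tested. With the normexp correction on all arrays, Dahl S minus SHR was 0.84 and SHR minus Dahl R was 0.32 (adjusted p = 0.644 and 0.882). Ugt2a3, Ugt2b and Ugt2b1 were not well above background on any array.

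These genes lie in a single row on chromosome 14, in the order Sult1e1, Sult1d1, Sult1b1, Ugt2a1, Ugt2a3, Ugt2b, Ugt2b15, Ugt2b37, Ugt2b35, Ugt2b7, Ugt2b7l1, Ugt2b1, Ugt2b10 and Ugt2b34l1, with a few other coding genes among them. Within it, the member higher in SHR, Ugt2a1, stood between Sult1b1, which was not called, and Ugt2a3, which was not detected. The members lower in SHR than in Dahl R, Ugt2b37, Ugt2b35 and Ugt2b7, were consecutive among the coding members.

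**Figure D2:**
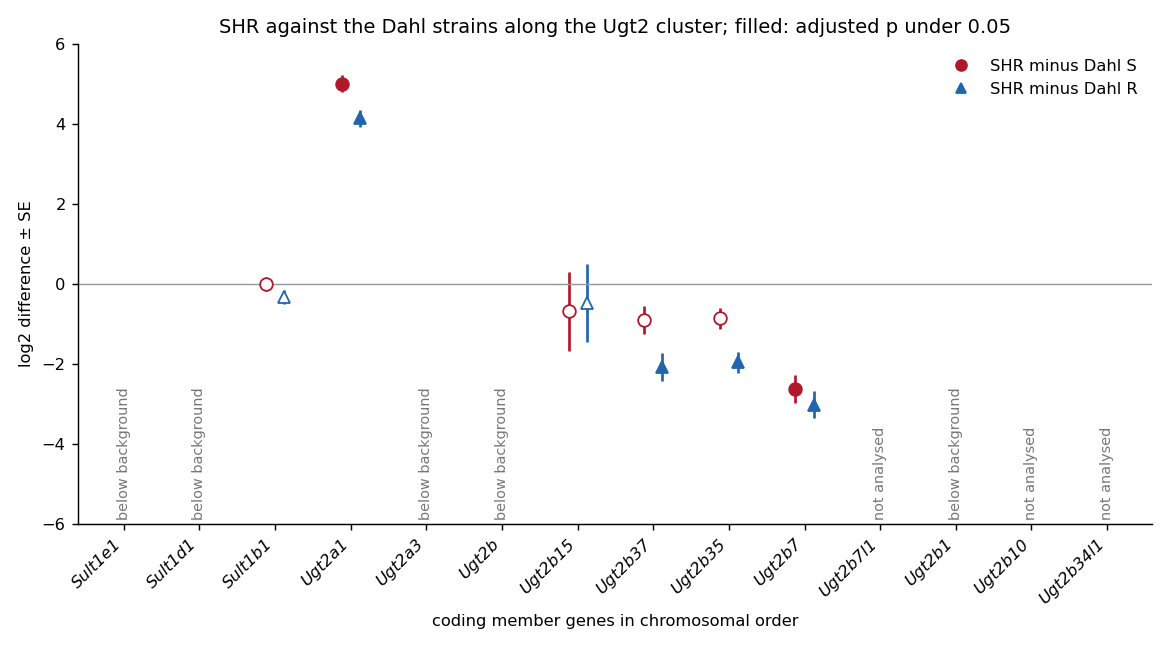
Log2 difference ± SE between SHR and each Dahl strain for coding Ugt2 and Sult1 members in their order on chromosome 14, filled where the adjusted p was under 0.05, with members below background or not analysed here named as such. Ugt2a1 is above 0, with its distance set by Dahl signals not well above background on 3 of 3 Dahl S arrays and all but 1 Dahl R array, while Ugt2b37, Ugt2b35 and Ugt2b7 lie below 0 against both Dahl strains, with the filled symbols limited to Ugt2b7 in the comparison with Dahl S.

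The Ugt1a locus differed by little. Ugt1a1 is the bilirubin enzyme, Ugt1a6 acts on planar phenols, and the other members share overlapping substrates such as phenols and steroids. Its 9 probes stand for 8 genes (Ugt1a1, Ugt1a2, Ugt1a3, Ugt1a5, Ugt1a6 with 2 probes, Ugt1a7c, Ugt1a8 and Ugt1a9). They were bright in every strain, between 5.47 and 6.49 on the usable arrays. Their median over probes was 5.94, 5.80 and 5.59 on the Dahl S arrays, 6.28, 6.18 and 6.25 on the Dahl R arrays, and 5.80 and 5.65 on the 2 usable SHR arrays. Probes of shared exons would read the same RNA. Whether these probes lie there was not tested, and they are not counted as 9 independent measurements.

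In each of the 9 probes the usable SHR arrays and the Dahl S arrays lay below all Dahl R arrays. SHR minus Dahl R ranged from -0.59 to -0.42 and passed for 8 of the 9. Ugt1a5 did not pass (-0.49, adjusted p = 0.141). Ugt1a9 had the lowest adjusted p, with 5.79 and 5.64 in SHR against 6.18, 6.18 and 6.26 in Dahl R (1.40-fold lower, 0.49 ± 0.10, adjusted p = 0.0231). It read 5.60, 5.65 and 5.58 in Dahl S, 1.51-fold below Dahl R (0.59 ± 0.09, adjusted p = 0.0302). Ugt1a8 was the other probe that passed between the Dahl strains, with 5.69, 5.67 and 5.59 in Dahl S and 6.09, 6.27 and 6.25 in Dahl R (1.47-fold, 0.55 ± 0.09, adjusted p = 0.0463). In SHR it read 5.80 and 5.77 (0.42 ± 0.10 below Dahl R, adjusted p = 0.0434).

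The remaining called probes were close to these. Ugt1a1 read 5.98, 5.89 and 5.79 in Dahl S, 6.41, 6.25 and 6.26 in Dahl R, and 5.92 and 5.75 in SHR. Ugt1a2 read 5.70, 5.77 and 5.62, then 6.49, 6.14 and 6.12, then 5.72 and 5.66, in the same order of strains. Ugt1a3 read 5.95, 5.80 and 5.59, then 6.38, 6.20 and 6.21, then 5.74 and 5.60. Dahl R was the highest strain in each of these genes, and Dahl S and SHR overlapped. The first Ugt1a6 probe read 5.93, 5.80 and 5.72 in Dahl S, 6.23, 6.18 and 6.39 in Dahl R, and 5.81 and 5.65 in SHR. The second read 5.56 and 5.52 on the 2 usable Dahl S arrays, 6.07, 6.10 and 6.06 in Dahl R, and 5.69 and 5.53 in SHR. Ugt1a7c read 6.01, 5.86 and 5.69, then 6.42, 6.15 and 6.40, then 5.82 and 5.65. Both Ugt1a6 probes and Ugt1a7c again had every Dahl R array above every other. Their SHR minus Dahl R differences were -0.53, -0.47 and -0.59, and those of Ugt1a1, Ugt1a2 and Ugt1a3 were -0.47, -0.56 and -0.59, with adjusted p between 0.0348 and 0.0486.

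The Ugt1a calls were narrow. With the outlier-marked spots kept, the 9 probes read 6.01 to 6.22 on SHR replicate 3, close to Dahl R, and the adjusted p of Ugt1a9 became 0.0665 against SHR and 0.06 against Dahl S. Among arrays scanned together, SHR minus Dahl R passed for Ugt1a2 (-0.44), Ugt1a3 (-0.54) and Ugt1a8 (-0.47). Between Dahl S and SHR, 0 of the 9 probes passed limma's test and 0 had an unadjusted p under 0.05, with differences from -0.14 to 0.11.

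**Figure D3:**
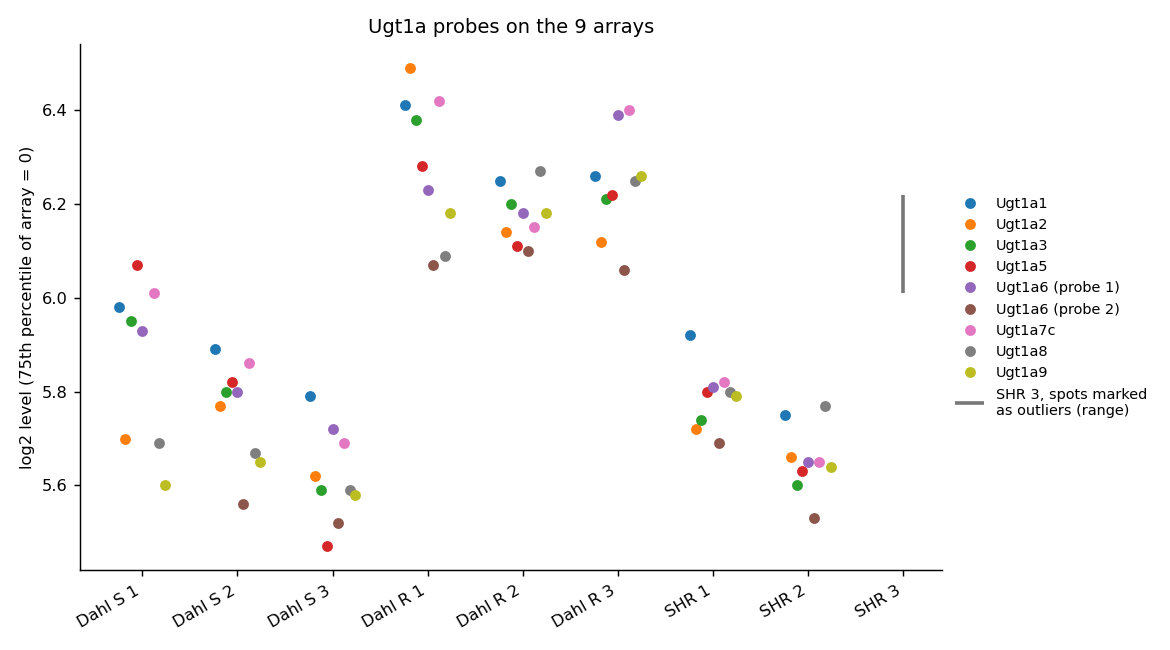
Log2 level (75th percentile of the array at 0) of the 9 Ugt1a probes on each array, 1 colour per probe, with a grey bar for the range of the outlier-marked spots of SHR replicate 3, which were left out. For each probe the 3 Dahl R arrays lie above the Dahl S arrays and the first 2 SHR arrays, and the grey bar spans 6.01 to 6.22.

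Ugt8 makes the galactolipids of myelin and was not called. It had means of 2.19 in Dahl S, 1.83 in Dahl R and 2.06 in SHR, and SHR minus Dahl R was 0.23 (adjusted p = 0.353). The value was 0.40 without SHR replicate 3 (adjusted p = 0.0191).

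Counted over the 21 tested probes, 14 differed between SHR and Dahl R, 1 higher (Ugt2a1, above background on 0 Dahl S and 1 Dahl R array) and 13 lower in SHR. Over all tested probes 13.0% did, 7.56% higher and 5.49% lower. Outside the Ugt1a locus, 6 of 12 probes differed, the arrays of the strains did not overlap for 8, and the median difference was -0.63. The median difference of the members was -0.49, against 0.11 over all probes. The arrays of the strains did not overlap for 17 members, and for 38.7% of all probes. The count was 17 without SHR replicate 3, 7 without Dahl S replicate 3 or SHR replicate 1, and 6 without Dahl S replicate 2, SHR replicate 2 or any Dahl R array. The 6 outside the Ugt1a locus passed whichever array was left out. Only Ugt2a1 and Ugt2b7 passed when the percentile was taken over probe averages of the spots without an outlier mark. This setting, called the percentile over unmarked spots below, also judged detection on unmarked spots alone. It moved the median of all probes from 0.11 to 0.36.

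Between Dahl S and SHR, 4 of 21 probes differed, Sult1c2, Sult1c3 and Ugt2b7 higher and Ugt2a1 lower in Dahl S. Ugt2a1 was above background on 0 Dahl S arrays and met the detection filter through its SHR arrays, so its difference was built in. The share over all probes was 15.7%, with 7.08% higher and 8.62% lower, so that the members' count was near the background. Their median was 0.08 against -0.09 over all probes, and 6 did not overlap, against 37.9% of all. The count was 7 without SHR replicate 3, and with the percentile over unmarked spots only Ugt2a1 passed. No scan held arrays of both strains, so strain and scan could be separated only through the Dahl R arrays. With scan as a block, 4 members and 5.22% of all probes passed.

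Between Dahl S and Dahl R, 2 of 21 passed, Ugt1a8 and Ugt1a9, both lower in Dahl S. Over all probes 1.4% passed, 0.705% higher and 0.699% lower. The members' median was -0.47 against 0.02, and 17 did not overlap, against 31.1% of all probes. Outside the Ugt1a locus limma called 0 of 12 probes, with 5 at an unadjusted p under 0.05. Their median was -0.36 and 8 did not overlap. Leaving out any Dahl array left 0 calls, and leaving out SHR replicate 1 or 2 left 1. Without SHR replicate 3, whose values count here only in the common variance, 9 members passed, all lower in Dahl S, and 4.59% of all probes did. Within the first scan, which held all Dahl S arrays and 1 Dahl R array, Ugt1a8 was at -0.44 and Ugt1a9 at -0.57, and neither passed. The comparisons of Dahl S and of SHR with Dahl R share the Dahl R arrays.

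**Figure D4:**
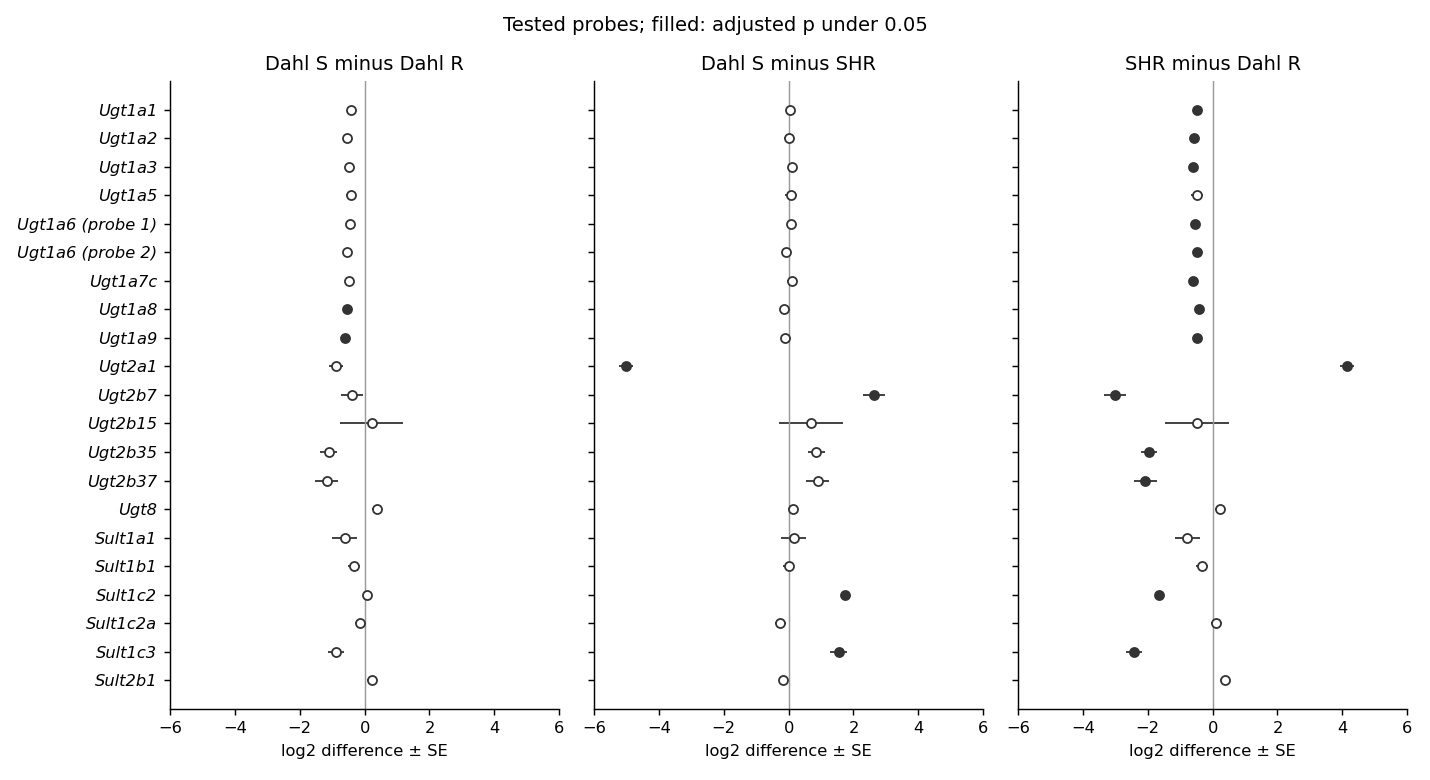
Log2 difference of the 21 tested member probes in the 3 comparisons, with bars of 1 SE (hidden where smaller than the symbol) and filled symbols where the adjusted p was under 0.05. The Ugt1a probes sit between -0.59 and -0.42 against Dahl R in both other strains and within 0.14 of 0 between Dahl S and SHR, while Ugt2a1, Ugt2b7, Sult1c2 and Sult1c3 are displaced in both comparisons with SHR.

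Genes that supply or follow these enzymes were listed as well: 49 genes, of which 42 had a probe and 40 were tested. Between SHR and Dahl R, 1 was higher in SHR and 7 were lower. Between Dahl S and SHR, 5 were higher and 4 lower in Dahl S, or 5 and 2 after quantile normalization and 5 and 1 in the authors' deposited values. Between the Dahl strains limma called 0 of 40, with 7 at an unadjusted p under 0.05. The shares called over all tested probes were 13.0%, 15.7% and 1.4% in these comparisons, and they apply equally to the smaller lists below. The medians were -0.01, -0.06 and 0.03, against 0.11, -0.09 and 0.02 over all probes.

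The supply of UDP-glucuronic acid showed no call in any comparison among 5 tested genes by limma. At an unadjusted p under 0.05 there were 1 between the Dahl strains, 2 between Dahl S and SHR and 1 between Dahl R and SHR. Ugdh, the enzyme that makes UDP-glucuronic acid, read 4.79, 4.80 and 4.65 in Dahl S, 4.70, 4.79 and 4.87 in Dahl R, and 4.38, 4.29 and 5.11 in SHR. The SHR arrays lay on both sides of the Dahl arrays.

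In the sulfate group of 11 tested genes, 2 were lower in SHR than in Dahl R, and against SHR 2 were higher and 1 lower in Dahl S. Slc13a1, the sodium-sulfate cotransporter of the proximal tubule, read 3.83, 3.65 and 3.76 in Dahl S, 3.57, 3.30 and 3.67 in Dahl R, and 2.96 and 2.72 on the 2 usable SHR arrays. It was lower in SHR than in Dahl S by 0.91 ± 0.15 (adjusted p = 0.00977) and than in Dahl R by 0.67 ± 0.15 (adjusted p = 0.0323). Tpst1, which sulfates tyrosines of secreted proteins, read 0.75, 0.39 and 0.46, then 0.45, 0.23 and 0.16, then -1.13, -0.88 and -1.86. Both genes had all SHR arrays below all Dahl arrays. Tpst1 was 3.54-fold below Dahl S (adjusted p = 0.00268) and 2.97-fold below Dahl R (adjusted p = 0.00624). Slc26a2, a sulfate exchanger, read -7.24, -5.93 and -6.77 in Dahl S, where 1 array was above background, and -5.70, -4.50 and -3.45 in SHR, where 2 were. The difference of the measured signals passed (-2.10 ± 0.58, adjusted p = 0.0485), but its size is not determined with so few arrays above background.

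Among 14 tested transcription factors, 1 was higher and 1 lower in SHR than in Dahl R, and 1 was higher and 3 lower in Dahl S than in SHR. Nr1h4, the bile acid receptor, read -4.06, -4.27 and -4.99 in Dahl S, -5.29, -5.00 and -5.31 in Dahl R, and 0.77, 0.80 and 1.27 in SHR. All SHR arrays lay above all Dahl arrays. The SHR level was 70.8-fold above that of Dahl R (6.15 ± 0.26, adjusted p = 1.01e-05) and 41.9-fold above that of Dahl S. Ppara, the fatty acid receptor, read -4.84, -5.35 and -5.72 in Dahl S against -4.07, -3.89 and -4.47 in SHR, and was lower in Dahl S (-1.16 ± 0.24, adjusted p = 0.0178). It was above background on only 2 of 3 arrays in each of these strains.

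Of 10 tested carriers of conjugates, 4 were lower in SHR than in Dahl R, and 2 were lower in SHR than in Dahl S. The efflux pump Abcc1 read -1.56, -1.84 and -1.70 in Dahl S, -1.93, -1.83 and -2.14 in Dahl R, and -3.25, -3.55 and -2.34 in SHR (1.08 ± 0.29 below Dahl R, adjusted p = 0.0466; 1.35 ± 0.29 below Dahl S, adjusted p = 0.0185). Abcc2, an apical pump of the proximal tubule, read -0.27, -0.47 and -0.55, then -0.42, -0.74 and -0.54, then -1.07, -1.14 and -1.04. All SHR values of both pumps were below all Dahl values, and Abcc1 was above background on only 2 of 3 SHR arrays. Abcc2 differed by 0.52 ± 0.12 from Dahl R (adjusted p = 0.0279) and by 0.65 ± 0.12 from Dahl S (adjusted p = 0.00989). Abcg2, another apical pump, read 4.55, 4.38 and 4.45 in Dahl R and 3.84, 3.89 and 4.12 in SHR (0.51 ± 0.10, adjusted p = 0.0179). Slc22a6, the basolateral organic anion transporter, read 6.14, 6.22 and 6.07 in Dahl R and 5.65 and 5.50 on the 2 usable SHR arrays (0.57 ± 0.11, adjusted p = 0.0308).

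Kidney markers were present in every strain, with all 12 proximal tubule markers above background. Against Dahl R, 4 of 12 (Slc5a1, Slc22a6, Slc13a3 and Gatm) were lower in SHR and none was higher. Among all tested probes, 5.49% were lower and 7.56% higher in SHR than in Dahl R. The summed level of the 6 markers with a value on every array was 9.71 to 9.91 in Dahl S, 9.65 to 9.76 in Dahl R and 9.66 to 9.97 in SHR. That sum leaves out Slc22a6, Slc13a3, Gatm, Cubn, Slc5a2 and Aqp1, whose SHR minus Dahl R differences were -0.57, -0.62, -0.77, -0.13, -0.14 and -0.10. Of 8 collecting duct markers, 4 (Aqp2, Scnn1b, Atp6v1b1 and Slc26a4) were higher in SHR than in Dahl R, and their sum over 4 markers was 6.81 to 7.08 in SHR against 6.13 to 6.56 in Dahl R and 6.18 to 6.55 in Dahl S. The part of this shift in the lower Ugt and Sult signals of SHR was not tested. Of the liver markers, Tat was below background on all arrays, and the sum over 4 of the list was -2.53 to -1.99 in Dahl S, -2.14 to -1.40 in Dahl R and -2.70 to -1.05 in SHR. That sum leaves out Fgb and Cyp2e1, which were above background on all 9 arrays. Cyp2e1 had means of 4.46 in Dahl S, 4.69 in Dahl R and 4.51 in SHR, and Fgb 0.11, -1.08 and -0.96. Of the 5 tested genes of the liver list, Fgb was higher in Dahl S than in Dahl R by 1.19 (adjusted p = 0.0477) and than in SHR by 1.07 (adjusted p = 0.015). The others were not called, with Dahl S minus Dahl R from -1.10 for Serpina1 to -0.10 for Ttr and a list median of -0.23. Between SHR and Dahl R, limma called 0 of the podocyte and 0 of the adrenal list, with 1 each at an unadjusted p under 0.05. It called Ucp1 of the fat cell list and Kcnj1 of the distal tubule list, both higher in SHR. Ucp1 rests on 2 usable arrays in each of these strains. The other tested fat cell markers were not called, at 0.54 for Fabp4, 0.39 for Adipoq and -0.36 for Cfd. Those of the distal tubule were not called either, at 0.62 for Calb1, 0.21 for Slc12a3 and 0.17 for Umod. Of 4 tested leukocyte markers limma called Itgam, higher in SHR by 1.09 and above background on 2 arrays of each strain. The other tested leukocyte markers were not called, with differences of -0.98 for Cd3e, -0.37 for Ptprc and -0.17 for Cd68, and the list's median was -0.27.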

How the data were processed

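Total RNA from 9 rat kidneys was amplified, labelled with Cy3 and hybridised to 1-colour Agilent arrays from 1 µg each, per the labels' protocols. The authors deposited scanner output whose intensity values (processed signal) had been background-corrected by Agilent Feature Extraction 10.5.1.1, named in the submitters' processing notes. They also deposited a table of log2 values of unstated normalization, with column medians of 9.63 to 9.64. Its columns correlated with the scanner signals at r from 0.974 to 1.00, and it served as an alternative.

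Here, log2 signals were scaled to each array's 75th percentile over all non-control spots, and outlier-marked spots were dropped. The fit used limma 3.58.1 in R 4.3.3, with the 3 strains as groups. It was tested on simulated data with independent noise and no scan effect. That test does not cover the scan differences or the third SHR array of these data. Of 24684 probes, 14294 were named through RefSeq. Every member past the threshold is described array by array, as is every listed support gene past it, except some that are not reported here. A listed gene with several probes stands by its brightest. The members and lists were chosen with earlier results of these data known. Promoters came from RefSeq on GRCr8. Scans were taken from the file headers: scan 1 held the Dahl S arrays and Dahl R replicate 1, scan 2 the other Dahl R arrays and SHR replicates 1 and 2, and scan 3 SHR replicate 3. The number of arrays limits the precision. No member spot was saturated.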

Additional observations from a re-analysis of the deposited data

How the results depend on the processing

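Of the member calls, those of Sult1c2, Sult1c3, Ugt2a1, Ugt2b7, Ugt2b35 and Ugt2b37 kept their direction in every alternative and passed in each one that leaves out an array. Those of the Ugt1a probes passed in 2 to 9 of 21 alternatives. The cause of the changes below was not tested. For Dahl S against Dahl R, the 2 members called became 0 with normexp, with the percentile over unmarked spots, with outlier spots kept, with no filter on dim probes and within scan 1. They became 1 with the authors' values (Ugt1a9). The count was also 1 with scan as a block (Ugt1a2, at -0.80) and with scan as a random block, but neither Ugt1a8 nor Ugt1a9 passed with either block. It was 6 with the 2 strains alone. Leaving out 1 array gave 0 to 9. For the support genes, 0 became 1 with quantile normalization, the random scan block and the 2 strains alone, and ranged from 0 to 3 without 1 array. For Dahl S against SHR, the 4 members became 2 with normexp and 1 with the percentile over unmarked spots, and 4 to 7 without 1 array. The 9 support genes became 3 with normexp, 4 with unmarked spots, the scan block or the 2 strains alone, and 5 with the random scan block, and ranged from 5 to 13 without 1 array. For SHR against Dahl R, the 14 members became 4 with normexp, 2 with unmarked spots, and 6 with outlier spots kept, no filter, the authors' values or the 2 strains alone. They ranged from 6 to 17 without 1 array. The 8 support genes became 3 with normexp, no filter or the 2 strains alone and 2 with unmarked spots, and ranged from 2 to 17. Over all probes, the 233, 2605 and 2165 calls of these comparisons ranged from 32 to 761, 550 to 4345 and 416 to 3772, the highest of each without SHR replicate 3. Signal over background limits Ugt2a1, Ugt2b15 and Sult1c3.

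The replicate numbers in the labels were not used to pair the samples. Deviations of same-numbered arrays correlated at -0.164 to 0.0682. Differently numbered arrays were not compared, so these values do not decide whether the numbers pair the animals. With the number as a replicate block, 0 members were called between the Dahl strains, 4 between Dahl S and SHR and 7 between Dahl R and SHR.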
